A study of Mus musculus with 15 samples.

Results

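LSK cells from mice that carried JAK2/IDH2-mutant marrow and received AG221 were compared with WT LSK cells, 3 RNA-seq libraries against 3, over every gene that passed a filter on low counts and lay outside chromosomes X and Y. These were 17143 of the 45232 genes in the count table, and 6 of the 15 libraries of the series. LSK cells are the lineage-negative, Sca-1+ and c-Kit+ fraction of bone marrow, which holds hematopoietic stem cells and early progenitors. The comparison asks how far mutant LSK cells under AG221 alone still stood from WT cells.

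The mutant cells carried Jak2 V617F and Idh2 R140Q alleles on a C57BL/6 background (C57BL/6J in the methods), activated by Mx1-Cre, an interferon-inducible Cre that polyI:polyC switches on in blood cells of many kinds and in other tissues. Donor marrow had been mixed with CD45.1 WT marrow and injected into irradiated CD45.1 hosts, and CD45.2+ LSK cells were sorted. AG221, an inhibitor of mutant IDH2, was given by gavage at 40 mg/kg 2 times daily for 21 to 28 days according to the labels (the methods name 40 or 100 mg/kg), with the last dose about 1.5 hours before sacrifice. The WT libraries carried the same labels of sorted cell, CD45.2+ LSK, and strain. Whether WT mice had been transplanted or gavaged, and whether a library was 1 mouse or a pool, was not stated in the sources used here. Mice of the study were 6 months to 1.5 years old and of both sexes. The vehicle group, 3 libraries of the same mutant cells without drug, was used to place the levels. Because separate mice are not stated for the libraries, p-values measure the spread between libraries only.

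Jak2 V617F keeps the JAK2 kinase active without cytokine, which drives STAT5, MAPK and PI3K signaling and overproduction of red cells, platelets and granulocytes. IDH2 R140Q turns 2-oxoglutarate into 2-hydroxyglutarate, which inhibits 2-oxoglutarate-dependent dioxygenases such as the TET enzymes and histone demethylases. AG221 (enasidenib) lowers 2-hydroxyglutarate, and it does not inhibit JAK2.

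The AG221 libraries A8, A9 and A10 held 25545779, 22116122 and 28369651 counts and the WT libraries B28, B30 and B31 held 24310100, 25526902 and 26408209. Levels are given in CPM, counts divided by the TMM-adjusted library size and scaled to a common total, always in the order A8, A9, A10 and B28, B30, B31, and 3 counts corresponded to between 0.101 and 0.141 CPM in these libraries. In bulk RNA, fewer cells of a type and less RNA per cell cannot be told apart. Genes were called when edgeR's quasi-likelihood test over all 15 libraries gave a Benjamini-Hochberg adjusted p-value under 0.05.

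Other differences between the libraries ran alongside the groups. Library A9 lay apart from A8 and A10: its counts differed from theirs by a chi-square per degree of freedom of 163 and 127, against 24.3 between A8 and A10, and it differed less from the 3 vehicle libraries (52.1 to 73.9). Xist, the noncoding RNA of the inactive X, was at 9.19, 5.35 and 3.42 CPM with AG221 and at 511, 455 and 477 CPM in WT, and the Y-linked gene Uty was at 108, 65.5 and 94.4 CPM against 0, 0.0337 and 0 CPM, so the groups also differed in sex-linked genes, and sex cannot be told apart from genotype and treatment. All AG221 names began with the letter A and all WT names with B, and what the letter stands for is not given in the sources used here, and it too cannot be told apart from the groups. Median distances from WT on the log2 scale were taken over the genes called below, a set chosen by AG221 against WT. The mutant libraries with ruxolitinib, which also had names in A, lay at 0.46 to 0.75 at higher genes and -1.50 to -0.85 at lower genes. The mutant libraries with both drugs, which had names in B, lay at 0.24 to 0.38 and -0.45 to -0.15. Those groups differed in AG221 as well as in the letter, so drug and letter cannot be told apart there either.

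AG221-treated mutant LSK cells had higher levels of many myeloid, mast cell, erythroid, ribosome, proteasome and respiratory chain genes and of some early response genes than WT LSK cells, and lower levels of many stem cell, HoxA and HoxB, B-lineage and plasma cell genes. Of 17143 genes tested, 8662 were called (50.5%), 3786 higher (22.1%) and 4876 lower (28.4%) in AG221-treated mutant cells. The libraries of the groups did not overlap at 10494 genes (61.2%), 4316 with all AG221 libraries above and 6178 with all below WT. The sizes were uneven: 1496 called genes were at least 2-fold higher and 4007 at least 2-fold lower, 277 against 2089 reached 4-fold, and 34 against 450 reached 16-fold. At 345 of the lower genes every AG221 library was at or under 3 counts, and at 15 of the higher genes every WT library was, so their fitted folds depend on the prior count. Vehicle-treated mutant cells differed from the same WT libraries at 5681 genes (33.1%), 2628 higher and 3053 lower, and AG221 differed from vehicle at 175 genes (1.02%).

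**Figure D1:**
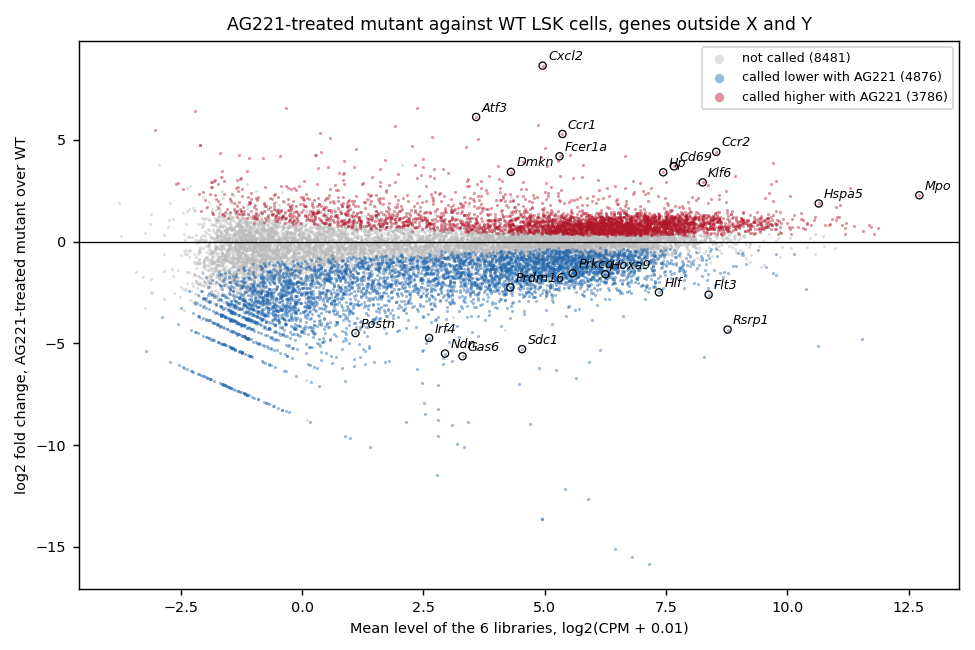
Each point is 1 of 17143 genes, with the mean level of the 6 libraries on the x axis as log2(CPM + 0.01) and the log2 fold change of AG221-treated mutant over WT on the y axis, and colours mark the 3786 genes called higher and the 4876 called lower. Called higher genes crowd at high levels with modest folds, and called lower genes spread over all levels with larger folds.

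The mutated genes themselves were measured first. Idh2 was at 55.1, 335 and 65.9 CPM with AG221, at 383, 376 and 440.0 CPM in WT and at 212, 368 and 461 CPM with vehicle. Library A9 lay next to WT and the other AG221 libraries lay at a small part of the WT level, and the fold change was -1.39 ± 0.61 on the log2 scale (edgeR adjusted p = 0.0685) with A9 and -2.71 without it (edgeR adjusted p = 0.000527). Jak2 was at 26.7, 31.5 and 26.99 CPM against 32.3, 38.4 and 27.1 CPM in WT, with overlapping groups (log2 fold change -0.20 ± 0.16, edgeR adjusted p = 0.317). Gene counts do not show which allele the reads came from.

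The 7 genes of the LSK gate and its subdivisions were present in every library, with 1 called higher and 3 lower. Kit, the stem cell factor receptor used in the sort, was at 984, 739.8 and 992 CPM with AG221 and 1552, 1279 and 1251 CPM in WT (log2 fold change -0.59 ± 0.17, edgeR adjusted p = 0.0135), and that call was lost with upper quartile scaling, with offsets for GC content or transcript length, with only the 6 libraries in the fit and without WT library B28. Ly6a, which encodes Sca-1, was at 148, 109 and 129 CPM against 59.9, 72.5 and 80.98 CPM, without overlap, but did not pass the test (log2 fold change 0.85 ± 0.54, edgeR adjusted p = 0.199) except in a fit of the 6 libraries alone (edgeR adjusted p = 0.009). Cd48, absent from the most primitive stem cells and present on multipotent progenitors, rose from 101, 104 and 159 CPM to 439, 283 and 434 CPM (log2 fold change 1.66 ± 0.23, edgeR adjusted p = 0.000253). Flt3, the receptor of lymphoid-primed progenitors, fell from 518, 600.4 and 596 CPM to 46.2, 173 and 63.4 CPM (log2 fold change -2.60 ± 0.62, edgeR adjusted p = 0.00466), with library A9 nearest to WT. Cd34 was at 665, 735 and 680.3 CPM against 1019, 1025 and 1108 CPM (log2 fold change -0.60 ± 0.17, edgeR adjusted p = 0.0117), a call that both offsets removed. LSK sort genes had 3 higher and 1 lower with either offset, 3 and 2 with only the 6 libraries in the fit, and 3 and 3 without A9.

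Ranked by adjusted p-value among called genes without overlap, the leading higher genes were early response and inflammatory genes, myeloid genes and a chaperone. Klf6, a Krüppel-like transcription factor, was at 608, 418 and 594 CPM with AG221 and at 78.5, 68.7 and 67.7 CPM in WT, a log2 fold change of 2.91 ± 0.19 (edgeR adjusted p = 3.4e-06). Atf3, a stress-induced bZIP factor, was at 18.98, 33.7 and 18.4 CPM against 0.363, 0.404 and 0.235 CPM (log2 fold change 6.13 ± 0.40, edgeR adjusted p = 3.4e-06). Ier3, an early response gene of survival signaling, was at 208, 209 and 254 CPM against 40.9, 44.3 and 48.9 CPM (log2 fold change 2.32 ± 0.16, edgeR adjusted p = 4.09e-06). All AG221 libraries lay several times above all WT libraries at these genes, and the vehicle libraries lay there too, at 970.0, 945 and 675 CPM for Klf6 and 57.6, 46.6 and 48.6 CPM for Atf3.

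Gene lists written from general knowledge placed the called genes in groups, and the share called among all tested genes, 22.1% higher and 28.4% lower with a median log2 fold change of -0.25, is set beside each count. It was not matched to a list's level or transcript length. Genes with a mean above 100 CPM were called higher at 55.8% and lower at 12.6%, and genes up to 1 CPM at 5.01% and 30.5%. Immediate early genes, which are induced within minutes of a stimulus without new protein synthesis, were higher at 14 members and lower at 2 of 34 tested (median log2 fold change 0.69). Btg2, an antiproliferative early gene, was at 505, 429 and 567 CPM against 61.4, 79.4 and 62.03 CPM (log2 fold change 2.89 ± 0.30, edgeR adjusted p = 6.5e-05). Egr1, an early growth response factor, was at 122, 325 and 157 CPM against 34.1, 21.5 and 20.8 CPM (log2 fold change 2.98 ± 0.68, edgeR adjusted p = 0.00386), and vehicle reached 375, 1485 and 631 CPM. Against the same WT libraries, vehicle had 19 higher and 1 lower members called. Immediate early genes had 16 higher and 0 lower with the length offset, 15 and 0 without A8, 12 and 4 without A9, and 13 and 0 without B30. Without A9 the median was -0.17, so its sign rests on that library, while Klf6, Atf3, Ier3 and Btg2 kept their calls.

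The promoters of Klf6, Atf3, Ier3 and Btg2, the 4 early genes that ranked first by adjusted p-value, are shown because these genes moved together, from 250 bases before to 50 bases after the start site in RefSeq (GRCm38.p6), 5′ to 3′ on the gene's own strand. Capitals mark matches, on either strand, to the cyclic AMP response element TGACGTCA, the AP-1 motif TGANTCA, the E-box CACGTG or the STAT motif TTCNNNGAA.
Klf6, chr13:5861239-5861538, plus strand: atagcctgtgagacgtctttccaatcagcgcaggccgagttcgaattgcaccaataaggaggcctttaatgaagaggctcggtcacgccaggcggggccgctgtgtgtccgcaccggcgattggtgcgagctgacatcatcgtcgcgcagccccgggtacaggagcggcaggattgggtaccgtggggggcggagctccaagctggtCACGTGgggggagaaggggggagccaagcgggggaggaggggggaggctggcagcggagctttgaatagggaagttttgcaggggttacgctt
Atf3, chr1:191183284-191183583, minus strand: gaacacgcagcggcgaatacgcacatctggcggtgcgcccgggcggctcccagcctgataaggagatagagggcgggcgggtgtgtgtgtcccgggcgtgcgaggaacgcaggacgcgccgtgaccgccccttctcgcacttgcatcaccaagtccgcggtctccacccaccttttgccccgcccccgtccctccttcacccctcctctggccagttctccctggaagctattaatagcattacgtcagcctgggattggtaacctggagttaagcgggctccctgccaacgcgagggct
Ier3, chr17:35821463-35821762, plus strand: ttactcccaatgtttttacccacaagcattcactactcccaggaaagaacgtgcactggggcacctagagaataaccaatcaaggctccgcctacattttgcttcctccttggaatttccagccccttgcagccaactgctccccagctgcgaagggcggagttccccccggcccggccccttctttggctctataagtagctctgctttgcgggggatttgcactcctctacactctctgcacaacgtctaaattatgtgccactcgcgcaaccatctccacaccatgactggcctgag
Btg2, chr1:134079106-134079405, minus strand: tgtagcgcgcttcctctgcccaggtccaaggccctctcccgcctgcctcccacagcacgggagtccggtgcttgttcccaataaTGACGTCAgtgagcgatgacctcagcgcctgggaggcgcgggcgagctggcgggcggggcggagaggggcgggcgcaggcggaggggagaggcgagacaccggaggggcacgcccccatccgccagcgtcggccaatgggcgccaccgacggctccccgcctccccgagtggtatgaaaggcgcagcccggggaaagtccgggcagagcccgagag
Klf6 held 1 E-box, Btg2 held 1 cyclic AMP response element, and Atf3 and Ier3 held none of the motifs in these windows. Of 27 early genes with a promoter in the table, 2 held the cyclic AMP response element (7.41%), 2 the AP-1 motif (7.41%), 6 the E-box (22.2%) and 3 the STAT motif (11.1%). These 27 genes had 36 promoters, and a gene counted if any of its promoters held the motif. Among all 32851 promoters of the table, counted singly, the shares were 1.79%, 7.81%, 7.15% and 8.30%. The shares per gene and per promoter are therefore not of the same unit.

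Other leading genes act at the cell surface or on the cytoskeleton. Ccr1, a receptor for inflammatory chemokines, was at 84.7, 70.2 and 86.4 CPM against 1.52, 2.83 and 1.78 CPM in WT (log2 fold change 5.29 ± 0.37, edgeR adjusted p = 4.09e-06). Cd69, an activation antigen that opposes S1P receptor 1 at the cell surface, was at 526, 251 and 356 CPM against 30.4, 27.2 and 29.4 CPM (log2 fold change 3.70 ± 0.28, edgeR adjusted p = 6.2e-06). Nkg7, a granule membrane gene of cytotoxic and myeloid cells, was at 759.7, 596 and 679.7 CPM against 157, 150.2 and 216 CPM (log2 fold change 1.96 ± 0.16, edgeR adjusted p = 9.09e-06). Like all the leading genes, these were taken from called genes whose groups did not overlap. Cap1, a regulator of actin turnover, was at 337, 237 and 302 CPM against 66.8, 56.2 and 71.8 CPM (log2 fold change 2.17 ± 0.16, edgeR adjusted p = 5.96e-06).

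Secreted and inflammatory products were among the largest folds. Cxcl2, a neutrophil-attracting chemokine, was at 81.8, 43.2 and 60.8 CPM with AG221 and at 0.109, 0.303 and 0.0335 CPM in WT, near the level of 3 counts (log2 fold change 8.65 ± 0.70, edgeR adjusted p = 1.01e-05). Ptgs2, the inducible cyclooxygenase, was at 25.8, 19.2 and 27.2 CPM against 0.653, 0.539 and 0.972 CPM (log2 fold change 5.05 ± 0.40, edgeR adjusted p = 9.09e-06). Hp, the hemoglobin-binding haptoglobin of neutrophil granules and plasma, was at 412, 262 and 281 CPM against 28.1, 34.9 and 26.7 CPM (log2 fold change 3.41 ± 0.27, edgeR adjusted p = 9.72e-06). Hp stood highest with AG221, lower with vehicle at 99.6, 117 and 91.96 CPM and lowest in WT, whereas Cxcl2 and Ptgs2 had vehicle levels of 92.1, 59.1 and 43.02 CPM and 50.7, 32.6 and 23.1 CPM that overlapped those with AG221. Dmkn, a secreted protein best known from skin, was at 43.2, 31.9 and 33.3 CPM against 2.90, 3.88 and 3.25 CPM (log2 fold change 3.43 ± 0.26, edgeR adjusted p = 8.36e-06). Hspa5, the main chaperone of the endoplasmic reticulum, was at 2733, 2482 and 2351 CPM against 707, 630.1 and 721 CPM (log2 fold change 1.88 ± 0.15, edgeR adjusted p = 1.14e-05).

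**Figure D2:**
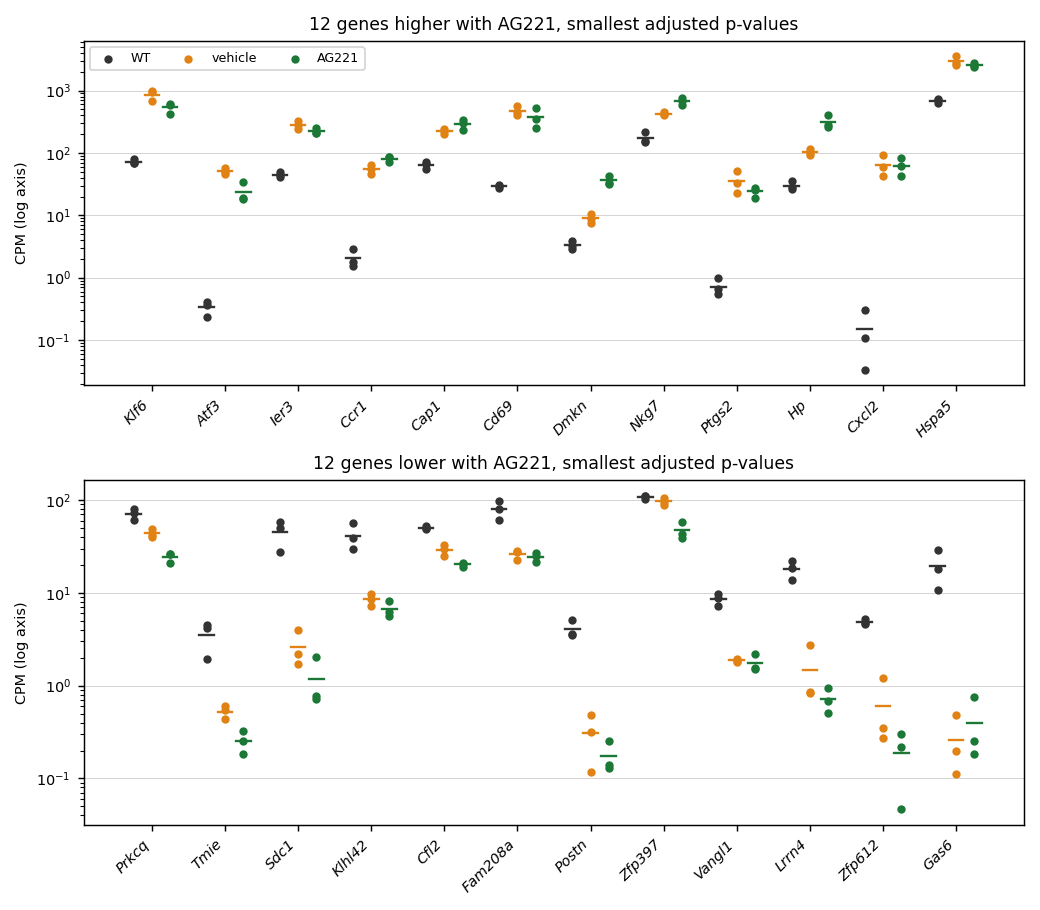
CPM on a log axis in each library of WT, vehicle and AG221 for the 12 leading genes of either direction, with short lines at the group means. The genes were ranked by adjusted p-value among called genes without overlap between AG221 and WT. By that choice the AG221 points lie wholly above WT in the upper panel and wholly below WT in the lower panel. The vehicle points lie on the AG221 side of WT at nearly every gene, Zfp397 being the gene where vehicle overlapped WT.

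On the lower side the leading genes had larger adjusted p-values. Prkcq, protein kinase C theta, was at 20.99, 25.99 and 26.1 CPM with AG221 and at 80.4, 72.5 and 61.1 CPM in WT (log2 fold change -1.55 ± 0.15, edgeR adjusted p = 3.93e-05). Cfl2, an actin-severing cofilin, was at 19.2, 21.1 and 20.5 CPM against 49.8, 51.97 and 48.99 CPM (log2 fold change -1.31 ± 0.15, edgeR adjusted p = 9.84e-05). Fam208a, a subunit of the HUSH silencing complex, was at 26.9, 25.1 and 21.8 CPM against 79.2, 96.7 and 61.6 CPM (log2 fold change -1.69 ± 0.20, edgeR adjusted p = 0.000119). Within each of these genes the AG221 libraries lay close together, A9 included.

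Zfp397, a zinc finger gene, was at 39.5, 58.4 and 43.5 CPM against 109.7, 104 and 111 CPM (log2 fold change -1.20 ± 0.14, edgeR adjusted p = 0.000144), and vehicle stood at 88.7, 105 and 96.02 CPM, where 1 library fell within the WT range. Klhl42, a kelch protein of cullin ligases, was at 6.24, 8.26 and 5.60 CPM against 38.8, 56.02 and 29.7 CPM (log2 fold change -2.63 ± 0.29, edgeR adjusted p = 8.95e-05). Vangl1, a planar cell polarity gene, was at 1.54, 1.50 and 2.22 CPM against 8.85, 9.61 and 7.18 CPM (log2 fold change -2.28 ± 0.28, edgeR adjusted p = 0.000153). At Klhl42 and Vangl1, unlike Zfp397, vehicle lay with AG221, at 7.14, 8.58 and 9.75 and 1.84, 1.95 and 1.82 CPM.

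Several of the leading lower genes belong to cells other than stem cells or to the matrix. Sdc1, the syndecan that marks plasma cells, was at 0.769, 2.02 and 0.727 CPM against 50.2, 57.4 and 27.8 CPM (log2 fold change -5.28 ± 0.57, edgeR adjusted p = 7.65e-05). Gas6, a ligand of the TAM receptor kinases, was at 0.256, 0.751 and 0.182 CPM against 18.2, 29.1 and 10.8 CPM (log2 fold change -5.63 ± 0.70, edgeR adjusted p = 0.00018). Postn, the matrix protein periostin, was at 0.128, 0.141 and 0.255 CPM against 3.63, 5.16 and 3.49 CPM (log2 fold change -4.49 ± 0.53, edgeR adjusted p = 0.000132). The AG221 libraries lay at or near the level of 3 counts for Postn. Tmie (0.256, 0.328 and 0.182 against 4.14, 4.55 and 1.94 CPM), Lrrn4 (0.513, 0.938 and 0.691 against 18.6, 22.3 and 13.6 CPM) and Zfp612 (0.299, 0.0469 and 0.218 against 4.72, 5.19 and 4.63 CPM) completed the 12. All 12 were taken from called genes without overlap.

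**Figure D3:**
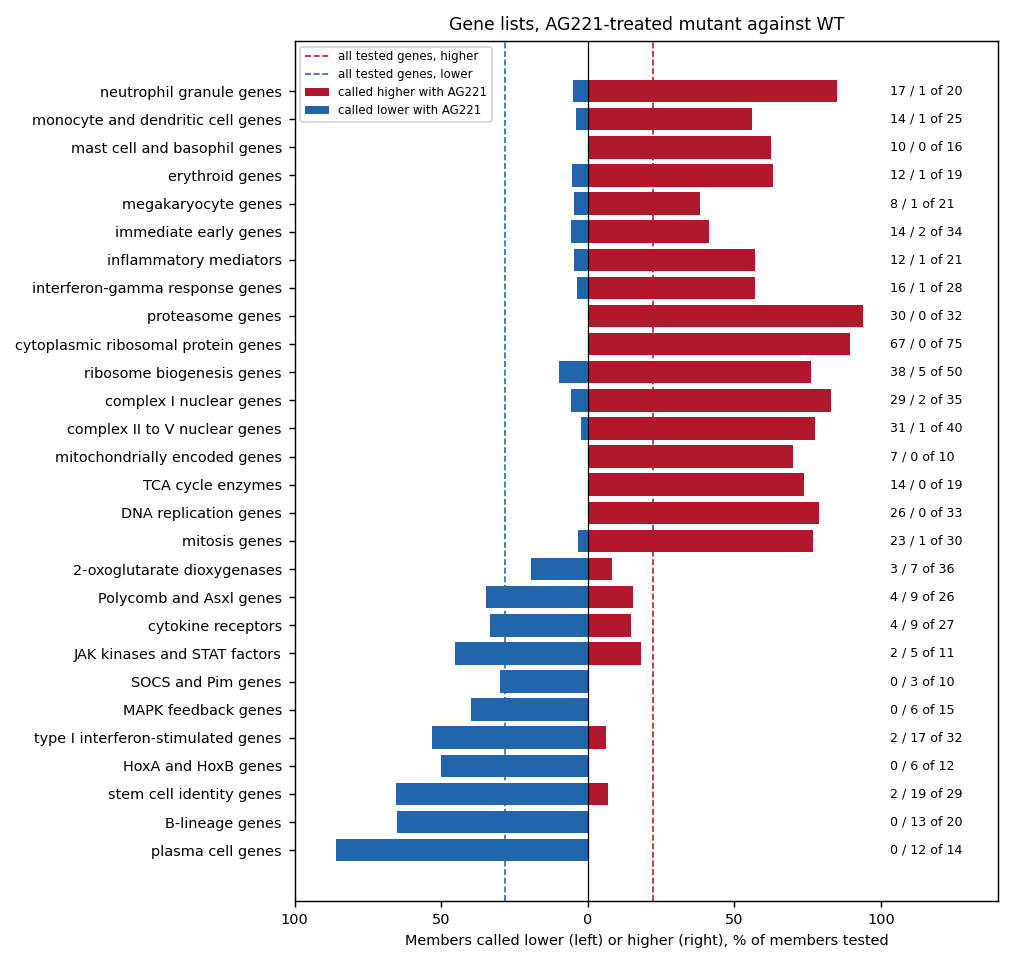
For 28 gene lists, bars to the right give the percent of tested members called higher and bars to the left the percent called lower with AG221, with the counts printed beside them and dashed lines at the shares of all 17143 genes (22.1% and 28.4%). Myeloid granule, proteasome, ribosome and respiratory chain lists lie far to the right, and plasma cell, B-lineage and stem cell lists to the left.

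Neutrophil granule genes had the highest median of all lists (17 higher and 1 lower of 20 tested, median log2 fold change 2.45). Mpo, the myeloperoxidase of azurophil granules, was at 12390.1, 10808 and 10439 CPM with AG221 against 2364, 2388 and 2164 CPM in WT (log2 fold change 2.28 ± 0.23, edgeR adjusted p = 4.73e-05). Ctsg, cathepsin G, was at 1691, 1168 and 1383 CPM against 189.7, 205 and 209 CPM (log2 fold change 2.81 ± 0.26, edgeR adjusted p = 2.3e-05), and Ms4a3, a membrane protein of granulocyte and monocyte progenitors, was at 1105, 703 and 814 CPM against 91.7, 96.5 and 87.1 CPM (log2 fold change 3.25 ± 0.28, edgeR adjusted p = 1.48e-05). Every AG221 library exceeded every WT library at 19 of the 20 members, beside 4316 of all 17143 genes. The list summed to 19334 to 22648 CPM with AG221, 8732 to 13909.8 CPM with vehicle and 4021 to 4358 CPM in WT.

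Monocyte and dendritic cell genes rose in part (14 higher and 1 lower of 25 tested, median log2 fold change 1.18). Ccr2, the chemokine receptor of inflammatory monocytes, was at 981, 462 and 685 CPM against 37.2, 30.4 and 32.1 CPM (log2 fold change 4.42 ± 0.41, edgeR adjusted p = 2.73e-05). Fcgr3, an activating Fc receptor, was at 148, 112 and 138 CPM against 29.1, 31.01 and 24.7 CPM, and vehicle at 38.9, 73.1 and 47.6 CPM lay between them (log2 fold change 2.23 ± 0.25 against WT, edgeR adjusted p = 9.84e-05). Ly6c2, a surface antigen of monocytes, was at 897, 712 and 548 CPM against 112, 179 and 98.3 CPM (log2 fold change 2.47 ± 0.39, edgeR adjusted p = 0.000504). Among cytokine receptors (4 higher and 9 lower of 27 tested, median log2 fold change -0.59), the called higher members included myeloid ones, Csf2rb at 268, 171 and 235 CPM against 56.8, 60.9 and 49.96 CPM and Csf1r at 135, 94.8 and 105 CPM against 25.1, 27.7 and 24.5 CPM. Csf2rb is the common beta chain of the GM-CSF, IL-3 and IL-5 receptors, and Csf1r the M-CSF receptor. Cytokine receptors had 5 higher and 5 lower with the length offset, 4 and 5 without A8 or A10, and 5 and 15 without A9.

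Mast cell and basophil genes (10 higher and 0 lower of 16 tested, median log2 fold change 1.99) and erythroid genes (12 higher and 1 lower of 19 tested, median log2 fold change 1.60) also stood higher. Cpa3, the mast cell carboxypeptidase, was at 268, 350.3 and 345 CPM against 49.3, 30.5 and 48.4 CPM (log2 fold change 2.91 ± 0.27, edgeR adjusted p = 2.3e-05). Fcer1a, the alpha chain of the IgE receptor, was at 72.02, 69.3 and 83.7 CPM against 4.93, 3.34 and 3.99 CPM (log2 fold change 4.20 ± 0.43, edgeR adjusted p = 5.46e-05). Hdc, which makes histamine, was at 169.9, 134 and 137 CPM against 40.1, 33.03 and 28.7 CPM (log2 fold change 2.11 ± 0.27, edgeR adjusted p = 0.0002) and vehicle, at 80.8, 119 and 190.0 CPM, overlapped the AG221 values. Tfrc, the transferrin receptor, was at 655, 352 and 340.2 CPM against 110.0, 114 and 106 CPM (log2 fold change 2.03 ± 0.35, edgeR adjusted p = 0.000855), and Car1, the erythroid carbonic anhydrase 1, at 1421, 921 and 1638 CPM against 202, 255 and 301 CPM (log2 fold change 2.39 ± 0.49, edgeR adjusted p = 0.00217). The X-linked Gata1, the master factor of these lineages, was outside the tested genes and was at 146, 101 and 152 CPM with AG221 and 40.2, 32.7 and 36.1 CPM in WT. Erythroid genes had 9 higher and 3 lower without A9, and 6 and 1 without B28 or B30. Mast cell and basophil genes had 10 higher and 2 lower over genes with at least 1 count or with DESeq2, and 9 and 2 without A9.

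Megakaryocyte genes were more divided (8 higher and 1 lower of 21 tested, median log2 fold change 0.31). Selp, the P-selectin of platelet granules, was at 211, 138 and 215 CPM against 37.05, 32.7 and 41.4 CPM (log2 fold change 2.34 ± 0.23, edgeR adjusted p = 3.63e-05), and Pf4, platelet factor 4, was at 134, 122 and 149 CPM against 56.7, 44.6 and 57.6 CPM (log2 fold change 1.35 ± 0.27, edgeR adjusted p = 0.00201). Gata2, the partner of Gata1 in early progenitors, was at 57.6, 178 and 73.9 CPM against 243, 192 and 202 CPM, and its test gave log2 fold change -1.04 ± 0.42 (edgeR adjusted p = 0.052) with A9 and -1.68 without it (edgeR adjusted p = 0.00278).

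Stem cell identity genes stood lower (2 higher and 19 lower of 29 tested, median log2 fold change -1.32). Hlf, a bZIP factor restricted to stem and early progenitor cells, was at 34.5, 65.2 and 48.8 CPM against 319, 295 and 219 CPM (log2 fold change -2.49 ± 0.43, edgeR adjusted p = 0.00079). Prdm16, a factor needed for stem cell maintenance, was at 3.55, 6.38 and 10.5 CPM against 37.6, 27.3 and 32.3 CPM (log2 fold change -2.25 ± 0.33, edgeR adjusted p = 0.00037), with vehicle between them at 20.2, 17.1 and 24.2 CPM. Ndn, necdin, a growth suppressor of quiescent stem cells, was at 0.0427, 0.751 and 0.218 CPM against 18.98, 14.1 and 12.1 CPM (log2 fold change -5.50 ± 1.05, edgeR adjusted p = 0.00143). The direction was not shared by every member: Clca3a1, a calcium-activated chloride channel regulator, was at 52.2, 32.04 and 40.2 CPM against 5.41, 6.17 and 4.43 CPM (log2 fold change 2.96 ± 0.44, edgeR adjusted p = 0.000374). Stem cell identity genes had 4 higher and 17 lower with the GC offset, and 4 and 16 with the length offset.

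The HoxA and HoxB genes, which sustain self-renewal, were lower or not called (0 higher and 6 lower of 12 tested, median log2 fold change -1.29). Hoxa9 was at 21.2, 62.2 and 29.9 CPM against 116, 112 and 115 CPM (log2 fold change -1.60 ± 0.38, edgeR adjusted p = 0.00457), and A9 lay nearest to WT. Hoxa3, which shares 25.4% of its exon bases with antisense genes whose reads may be counted with it, was at 0.556, 1.45 and 0.509 CPM against 5.59, 5.26 and 5.13 CPM (log2 fold change -2.67 ± 0.51, edgeR adjusted p = 0.0014). Runx1, which is required for definitive blood stem cells, was at 44.1, 82.9 and 42.9 CPM against 172, 154 and 123 CPM (log2 fold change -1.40 ± 0.36, edgeR adjusted p = 0.0074).

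Plasma cell and B-lineage genes stood much lower with AG221 than in WT. Plasma cell genes (0 higher and 12 lower of 14 tested, median log2 fold change -2.42) and B-lineage genes (0 higher and 13 lower of 20 tested, median log2 fold change -2.28) had no member called higher. Vehicle against WT gave 0 higher and 10 lower plasma cell genes (median -2.18) and 0 higher and 11 lower B-lineage genes (median -2.13). Irf4, a plasma cell transcription factor, was at 0.855, 0.375 and 0.109 CPM against 7.11, 23.5 and 4.86 CPM (log2 fold change -4.73 ± 0.67, edgeR adjusted p = 0.000311), and Blnk, an adaptor of B cell receptor signaling, was at 3.25, 2.39 and 2.22 CPM against 12.6, 20.1 and 9.76 CPM (log2 fold change -2.43 ± 0.44, edgeR adjusted p = 0.000987). The 86 immunoglobulin segments tested summed to 5664, 8005 and 20111 CPM in the WT libraries B31, B28 and B30, to between 302 and 796 CPM with AG221 and to between 110 and 325 CPM with vehicle. WT library B30 was thus highest in plasma cell transcripts, and none of the 14 plasma cell genes was at 3 counts or fewer in all AG221 libraries. What part of the lower calls came from mature cells in the WT sort was not tested. With antigen receptor genes left out, 8592 genes were called. T and NK cell genes had 2 higher and 5 lower of 22 tested (median log2 fold change -0.77), a lower share under the 28.4% of all genes. The 2 called higher were Nkg7, described above, and Gzmb, the protease granzyme B. Gzmb was at 42.3, 79.6 and 51.1 CPM against 4.57, 3.91 and 1.34 CPM (log2 fold change 4.14 ± 0.62, edgeR adjusted p = 0.000388). B-lineage genes had 0 higher and 8 lower with the length offset or over genes with at least 10 counts in every library, 0 and 5 without A10 or B30, and 0 and 7 without B28. T and NK cell genes had 2 higher and 3 lower over genes with at least 10 counts in every library or without B28, 2 and 8 with only the 6 libraries in the fit, 2 and 2 without A8 or B30, 2 and 9 without A9, and 2 and 1 without A10.

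Inflammatory mediators were higher at 12 of 21 tested members and lower at 1 (median log2 fold change 1.72). Osm, oncostatin M, a cytokine of the interleukin-6 family and a STAT5 target, was at 55.7, 118 and 85.8 CPM against 9.07, 9.81 and 10.3 CPM (log2 fold change 3.15 ± 0.29, edgeR adjusted p = 2.3e-05). Tnf was at 55.3, 33.6 and 43.4 CPM against 2.87, 2.33 and 3.45 CPM (log2 fold change 3.93 ± 0.37, edgeR adjusted p = 2.88e-05). Inflammatory mediators had 12 higher and 3 lower over genes with at least 1 count, with DESeq2 or without A9. NF-kB subunits and feedback genes were mixed (5 higher and 3 lower of 18 tested, median log2 fold change 0.15), with Nfkb1 at 281, 222 and 297 CPM against 161, 149 and 159 CPM and Tnfaip3, the A20 brake on NF-kB, at 98.5, 78.8 and 63.2 CPM against 30.3, 33.7 and 22.2 CPM, both called higher. The NF-kB median was -0.21 without A9. NF-kB subunits and feedback genes had 8 higher and 3 lower with either offset, 3 and 4 over genes with at least 10 counts in every library or with only the 6 libraries in the fit, 3 and 0 without A8, 4 and 7 without A9, 4 and 0 without A10, 3 and 3 without B28, 2 and 2 without B30, and 3 and 2 without B31.

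MAPK feedback genes, inhibitors that kinase signaling induces, had 0 members called higher and 6 lower of 15 tested (median log2 fold change -0.62). Spry4, a Sprouty inhibitor of RAS signaling, was at 0.513, 1.36 and 0.691 CPM against 4.68, 3.0 and 3.29 CPM (log2 fold change -2.10 ± 0.45, edgeR adjusted p = 0.00258), and Dusp4, an ERK phosphatase, was at 0.0855, 2.67 and 0.182 CPM against 12.6, 12.9 and 7.78 CPM (log2 fold change -3.53 ± 1.01, edgeR adjusted p = 0.0118). In A8 and A10 Dusp4 lay near the level of 3 counts, and in A9 well above it. SOCS and Pim genes, only some of which are targets of STAT5, had 0 members called higher and 3 lower of 10. That lower share was near the 28.4% of all genes. Socs6, a SOCS-box inhibitor of KIT and FLT3 signaling, was at 23.7, 43.2 and 26.2 CPM against 68.03, 64.4 and 58.01 CPM, with vehicle at 62.1, 64.5 and 54.1 CPM (log2 fold change -1.03 ± 0.20 against WT, edgeR adjusted p = 0.00134). Socs1, a direct inhibitor of JAK kinases, was at 0.0427, 0.704 and 0.182 CPM against 2.76, 7.28 and 2.18 CPM (log2 fold change -3.74 ± 0.82, edgeR adjusted p = 0.00305). MAPK feedback genes had 2 higher and 5 lower with the GC offset. SOCS and Pim genes had 2 higher and 3 lower with either offset, and 0 and 5 without A9.

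JAK kinases and STAT factors were divided (2 higher and 5 lower of 11 tested, median log2 fold change -0.34). Jak1 was at 96.8, 213 and 110.5 CPM against 550.2, 522 and 454 CPM (log2 fold change -1.86 ± 0.35, edgeR adjusted p = 0.00124) and Stat2, a transcription factor of type I interferon signaling, at 24.96, 47.3 and 30.3 CPM against 75.98, 73.3 and 60.96 CPM (log2 fold change -1.04 ± 0.21, edgeR adjusted p = 0.00204). Stat6, the interleukin-4 pathway factor, was higher, at 300.4, 203 and 286 CPM against 184, 167 and 171 CPM (log2 fold change 0.60 ± 0.14, edgeR adjusted p = 0.00446). The median of this list changed sign, to 0.031, with an offset for transcript length, which moved the median of all genes by 0.30. JAK kinases and STAT factors had 2 higher and 3 lower with the length offset or without B28, 1 and 2 without A8, and 2 and 2 without A10.

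The interferon lists pointed in opposite directions. Type I interferon-stimulated genes were mostly lower (2 higher and 17 lower of 32 tested, median log2 fold change -0.67): Ifi44 was at 12.7, 10.9 and 13.3 CPM against 56.4, 58.9 and 55.3 CPM (log2 fold change -2.20 ± 0.39, edgeR adjusted p = 0.000937), and Mx2, a dynamin-like antiviral GTPase, at 0.385, 0.610 and 0.364 CPM against 3.27, 4.95 and 3.69 CPM (log2 fold change -3.13 ± 0.59, edgeR adjusted p = 0.00133). Interferon-gamma response genes were mostly higher (16 higher and 1 lower of 28 tested, median log2 fold change 0.67): Serpina3g, an intracellular protease inhibitor, was at 1278, 960.0 and 1384 CPM against 279.9, 226 and 322 CPM (log2 fold change 2.13 ± 0.33, edgeR adjusted p = 0.000464), and Gbp3, a guanylate-binding protein, at 386, 165 and 250.4 CPM against 57.7, 53.7 and 59.95 CPM (log2 fold change 2.23 ± 0.35, edgeR adjusted p = 0.000491). The libraries of the groups did not overlap at any of these 4 genes, which were named for a small p. Among all genes 61.2% had no overlap. Both medians kept their signs with upper quartile scaling, with both offsets, with DESeq2 and without A9. Type I interferon-stimulated genes had 4 higher and 12 lower with the GC offset, 4 and 8 with the length offset, 1 and 11 without A8, and 4 and 14 without A9. Interferon-gamma response genes had 16 higher and 4 lower with only the 6 libraries in the fit.

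Genes of energy metabolism rose broadly. Complex I of the respiratory chain had 29 of 35 nuclear subunits and factors higher and 2 lower (median log2 fold change 1.01), complexes II to V had 31 of 40 higher and 1 lower (0.99), and mitochondrially encoded genes 7 of 10 higher (0.69). Ndufa11, a complex I subunit, was at 122, 95.9 and 116 CPM against 37.8, 38.4 and 51.1 CPM (log2 fold change 1.39 ± 0.15, edgeR adjusted p = 9.14e-05). Cycs, cytochrome c, was at 187, 131 and 149.6 CPM against 40.6, 42.6 and 54.3 CPM (log2 fold change 1.76 ± 0.20, edgeR adjusted p = 9.33e-05), and mt-Nd1 at 1667, 1246 and 1566 CPM against 692, 644 and 745 CPM (log2 fold change 1.11 ± 0.14, edgeR adjusted p = 0.000157). Vehicle values lay between the groups at Ndufa11, at 72.9, 59.0 and 68.6 CPM. Complex I nuclear genes had 30 higher and 0 lower with the GC offset or without A8 or B31, and 28 and 0 with the length offset, with only the 6 libraries in the fit or without A10, B28 or B30. Complex II to V nuclear genes had 31 higher and 7 lower without A9.

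Among isocitrate and 2-hydroxyglutarate dehydrogenases (4 higher and 0 lower of 8 tested, median log2 fold change 0.18), Idh1, the cytosolic enzyme, was at 239.9, 139.9 and 174 CPM against 73.1, 66.4 and 61.3 CPM (log2 fold change 1.46 ± 0.21, edgeR adjusted p = 0.000319). Idh3a, a subunit of the NAD-dependent enzyme of the TCA cycle, was at 671, 410.1 and 523 CPM against 216, 193 and 239 CPM (log2 fold change 1.31 ± 0.23, edgeR adjusted p = 0.000958). TCA cycle enzymes had 14 of 19 higher and 0 lower. Glycolysis and hypoxia-responsive genes, taken as 1 list, were more divided (11 higher and 4 lower of 27 tested, median log2 fold change 0.37). Of its glycolytic members, Gpi1, the glucose-6-phosphate isomerase, was at 957, 769 and 847 CPM against 338, 336 and 361 CPM (log2 fold change 1.31 ± 0.11, edgeR adjusted p = 1.36e-05). Eno1, enolase, was at 1183, 795 and 958 CPM against 339, 329 and 388 CPM (log2 fold change 1.48 ± 0.15, edgeR adjusted p = 4.13e-05). Cholesterol and fatty acid synthesis genes showed no common direction (6 higher and 5 lower of 30 tested, median log2 fold change 0.074). Isocitrate and 2-hydroxyglutarate dehydrogenases had 4 higher and 2 lower without A9. Glycolysis and hypoxia-responsive genes had 17 higher and 3 lower with the GC offset, and 17 and 4 with the length offset. Cholesterol and fatty acid synthesis genes had 12 higher and 4 lower with the GC offset, 13 and 3 with the length offset, 2 and 4 without A8, and 3 and 4 without A10 or B30.

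Growth and division genes rose too. Cytoplasmic ribosomal protein genes had 67 of 75 members higher and 0 lower (median log2 fold change 0.89) and summed to 28273 to 33535 CPM with AG221, 22779.7 to 23829 CPM with vehicle and 15329.7 to 20880.5 CPM in WT. Ribosome biogenesis genes had 38 of 50 higher and 5 lower, and proteasome genes 30 of 32 higher and 0 lower, among them Sem1, a small subunit of the 19S lid, at 281, 229 and 282 CPM against 92.2, 101 and 126 CPM (log2 fold change 1.31 ± 0.13, edgeR adjusted p = 4.13e-05). DNA replication genes had 26 of 33 higher and 0 lower and mitosis genes 23 of 30 higher and 1 lower. Gins1, a part of the replicative helicase, was at 92.97, 67.4 and 83.3 CPM against 26.5, 24.5 and 31.7 CPM (log2 fold change 1.56 ± 0.18, edgeR adjusted p = 0.000132), and Birc5, survivin, at 317, 221 and 284 CPM against 107, 97.9 and 137 CPM (log2 fold change 1.26 ± 0.17, edgeR adjusted p = 0.000227). Cytoplasmic ribosomal protein genes had 68 higher and 2 lower without A9. Ribosome biogenesis genes had 36 higher and 2 lower without A8, 37 and 2 without A10, 37 and 3 without B28, and 34 and 3 without B30. DNA replication genes had 26 higher and 2 lower with upper quartile scaling, over genes with at least 1 count or with DESeq2, and 24 and 3 without A9. Mitosis genes had 22 higher and 3 lower without A9.

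Myc, which drives ribosome and metabolic genes, did not pass the test. It was at 312, 896 and 413 CPM against 693, 509.9 and 739.6 CPM, with A9 above and A8 and A10 below all WT libraries (log2 fold change -0.26 ± 0.30, edgeR adjusted p = 0.478), and its log2 fold change was -0.82 without A9 (edgeR adjusted p = 0.00352) and 0.031 without A8. Mycn, its stem cell paralog, fell from 119, 117 and 126 CPM to 3.55, 31.3 and 7.60 CPM (log2 fold change -3.09 ± 0.74, edgeR adjusted p = 0.00489). Cdkn1a, the p21 inhibitor of CDKs and a p53 target, rose from 13.3, 10.5 and 13.6 CPM to 60.5, 67.5 and 66.7 CPM (log2 fold change 2.38 ± 0.28, edgeR adjusted p = 0.000134), as did Pmaip1, the proapoptotic NOXA, from 4.97, 5.26 and 3.55 CPM to 108, 76.2 and 80.1 CPM (log2 fold change 4.26 ± 0.42, edgeR adjusted p = 3.93e-05). The p53 list as a whole was split (6 higher and 8 lower of 20 tested, median log2 fold change 0.029): Sesn1, a stress-induced sestrin, was at 31.8, 80.7 and 34.9 CPM against 234, 251 and 224 CPM (log2 fold change -2.27 ± 0.37, edgeR adjusted p = 0.000608). The p53 and target genes had 5 higher and 4 lower with only the 6 libraries in the fit, 5 and 3 without A8, A10 or B30, and 5 and 5 without B31.

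Of 36 2-oxoglutarate dioxygenases, the enzyme class that 2-hydroxyglutarate can inhibit, 3 were called higher and 7 lower, beside 22.1% and 28.4% of all genes (median log2 fold change 0.023, -0.10 without A9, 0.31 with the GC offset and 0.53 with the length offset). Kdm5b, a histone H3K4 demethylase, was at 31.8, 48.1 and 33.2 CPM against 133, 170.0 and 101 CPM (log2 fold change -1.84 ± 0.29, edgeR adjusted p = 0.000527), and Kdm4b, a histone H3K9 demethylase, at 5.68, 14.3 and 5.82 CPM against 46.5, 55.2 and 28.1 CPM (log2 fold change -2.34 ± 0.46, edgeR adjusted p = 0.00162). DNA methyltransferases and readers were divided, 4 higher and 4 lower of 10, and their median of -0.11 became 0.11 with the GC offset and 0.36 with the length offset. Among them was Dnmt3b, a de novo methyltransferase, Dnmt3b at 25.4, 43.3 and 25.8 CPM against 68.5, 89.1 and 69.7 CPM. Polycomb and Asxl genes had 4 members higher and 9 lower of 26. Cbx2 was at 4.27, 18.1 and 6.73 CPM against 42.3, 46.5 and 47.4 CPM (log2 fold change -2.23 ± 0.45, edgeR adjusted p = 0.00199), while Suz12, a core subunit of PRC2, was at 78.1, 78.4 and 65.2 CPM against 43.98, 44.2 and 44.5 CPM (log2 fold change 0.74 ± 0.16, edgeR adjusted p = 0.0025). The Polycomb median changed sign, from -0.36 to 0.034, with the offset for transcript length. Beside these list medians, the median of all genes moved by 0.29 with the GC offset and 0.30 with the length offset. 2-oxoglutarate dioxygenases had 12 higher and 5 lower with the GC offset, 16 and 4 with the length offset, 4 and 4 with only the 6 libraries in the fit, 5 and 10 without A9, 2 and 4 without A10, 3 and 4 without B28, and 5 and 7 with DESeq2. DNA methyltransferases and readers had 2 higher and 3 lower without A10, and 1 and 3 without B30. Polycomb and Asxl genes had 7 higher and 5 lower with the length offset, 3 and 5 without A8, and 4 and 4 without A10.

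Other single genes had large folds. Rsrp1, an arginine- and serine-rich protein, fell from 701, 1217 and 575 CPM to 20.2, 85.9 and 19.2 CPM (log2 fold change -4.32 ± 0.74, edgeR adjusted p = 0.000764). Neat1, the noncoding RNA of paraspeckles, rose from 107, 92.7 and 83.4 CPM to 373, 290.4 and 293 CPM (log2 fold change 1.76 ± 0.17, edgeR adjusted p = 3.82e-05). S1pr1, the receptor that guides egress into blood, was at 8.72, 12.6 and 13.7 CPM with AG221, 31.6, 31.3 and 26.96 CPM in WT and 24.96, 32.2 and 28.4 CPM with vehicle (log2 fold change -1.36 ± 0.21 against WT, edgeR adjusted p = 0.00041), so of these 3 groups AG221 stood apart. S1pr1 was named in part for a small p in AG221 against vehicle. That contrast was called in 1 of 6 fits that each left out 1 library. Rgs1, a brake on chemokine receptor signaling, was at 627, 562 and 731 CPM against 150.2, 126 and 111 CPM (log2 fold change 2.31 ± 0.30, edgeR adjusted p = 0.000209).

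The called genes differed in level, transcript length and class. Genes called higher had a median of 84.5 CPM with AG221 and 47.3 CPM in WT, and genes called lower of 3.16 and 11.2 CPM. The median of the longest transcript was 2422 bases for higher genes, 3715 bases for lower genes and 2839 bases for genes not called. Among genes with a transcript of up to 1000 bases, 28.5% were called higher and 11.8% lower, and among those over 6000 bases 11.3% and 43.5%. Genes with a mean above 100 CPM were called higher at 55.8% and lower at 12.6%, and genes up to 1 CPM at 5.01% and 30.5%. The 1353 genes with transcripts over 58% GC had a median log2 fold change of -0.85, against medians between -0.27 and -0.18 in the lower GC classes. The 100 most abundant genes took 16.4% to 18.8% of the counts with AG221 and 13.2% to 14.4% in WT. Their part in the list results was not tested beyond 2 offsets, of which the length offset was chosen after the data were seen. With a GC offset per library 5127 genes were called higher and 3858 lower. With a length offset the counts were 5106 and 3458, so the split reversed. The median of all genes moved by 0.29 and 0.30 on the log2 scale, to 0.036 and 0.043. Each offset also recentred every library over all genes. A common shift and a trend with GC or length therefore cannot be told apart in these counts.

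**Figure D4:**
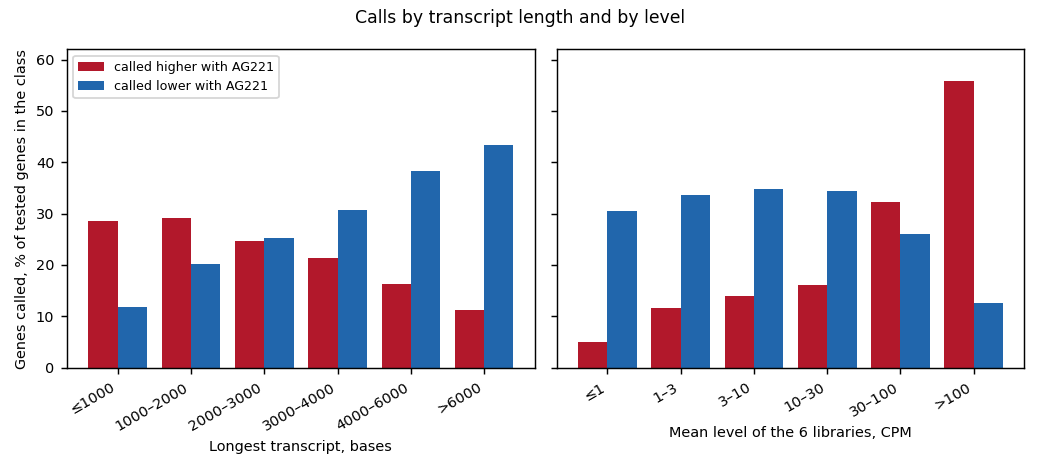
Percent of tested genes called higher and lower with AG221 in 6 classes of the longest transcript (left) and 6 classes of the mean CPM of the 6 libraries (right). The share called higher falls from 28.5% to 11.3% from the shortest to the longest class and rises from 5.01% to 55.8% from the lowest to the highest level.

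Gene families were picked after their values were seen and moved in different directions, beside 22.1% higher and 28.4% lower among all genes. Their relation to length and level was not tested. Of 355 Zfp zinc finger genes tested, 17 were called higher and 151 lower (median log2 fold change -0.50), and of 32 Col collagen genes 2 higher and 20 lower (-1.95). Of 76 mitochondrial ribosomal protein genes (Mrpl and Mrps), 52 were called higher and 4 lower (0.86). Of the other families looked at, Slc genes had 52 higher and 89 lower of 268 (-0.45) and Kif genes 10 and 12 of 37 (-0.28). Snhg genes had 5 higher and 1 lower of 10 (0.39), and Hist1, Hist2 and Hist4 genes 13 and 0 of 48 (0.28). Processed pseudogenes were called higher at 232 and lower at 64 of 861, and their reads may belong to the parent genes. By chromosome the called shares ran from 18.8% to 25.6% higher and from 24.3% to 31.5% lower over the autosomes, while 10 of 13 tested mitochondrial genes were called higher and 0 lower.

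Library A9 lay nearest to WT among the AG221 libraries at 2979 of the 3786 higher genes (78.7%) and at 3459 of the 4876 lower genes (70.9%). Its median distance from the WT mean was 0.67 on the log2 scale over higher genes and -1.20 over lower genes, against 1.04 and -2.11 for A8 and 0.93 and -1.98 for A10, and the vehicle libraries had 0.41 to 0.63 and -1.47 to -0.85. Without A9, 10362 genes were called, 4092 higher and 6270 lower.

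**Figure D5:**
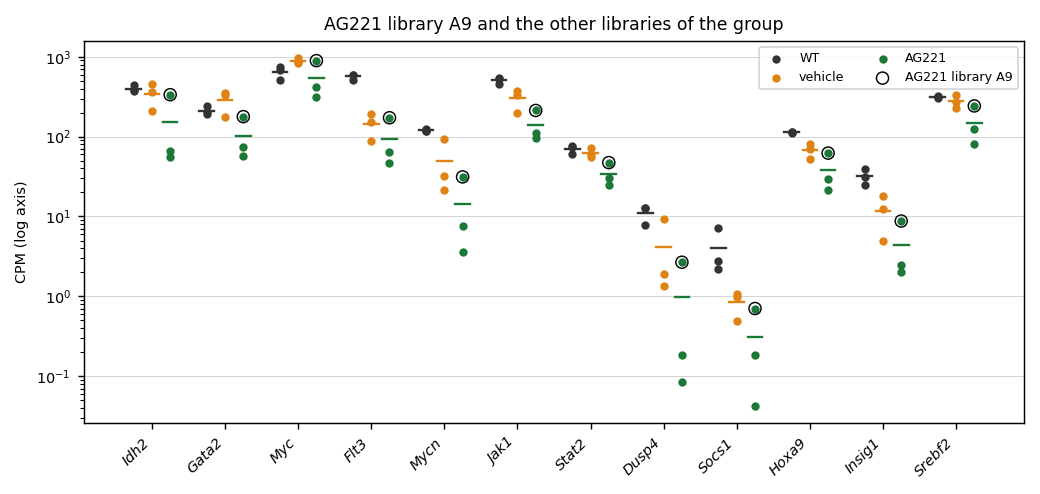
CPM on a log axis in each library of WT, vehicle and AG221 for 12 genes chosen after their values were seen, with A9 ringed and short lines at the group means. At each gene A9 is the highest of the 3 AG221 libraries, for example 335 CPM of Idh2 against 55.1 CPM in A8 and 65.9 CPM in A10.

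AG221 was also compared with vehicle directly, since both comparisons with WT use the same WT libraries. The 175 genes called there (85 higher and 90 lower) depended on single libraries. In edgeR 0 genes were called without A8, without A10 or without vehicle libraries A1 or A4, where 2540 to 4397 genes had an unadjusted p under 0.05, while 28 were called without A3 and 4537 without A9. DESeq2 on all libraries called 2214. Set side by side, the log2 fold changes against WT were 2.91 ± 0.19 with AG221 and 3.59 with vehicle for Klf6, 5.29 and 4.76 for Ccr1, and 6.13 and 7.23 for Atf3. They were 2.28 and 1.53 for Mpo, -2.49 and -2.22 for Hlf, and -4.73 and -4.76 for Irf4.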

How the data were processed

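Total RNA from sorted CD45.2+ LSK cells was amplified with SMARTer and sequenced as 50 bp paired-end reads. The authors aligned the reads with STAR 2.5.1a to mm10/GRCm38 and deposited raw gene counts for 15 libraries, and their DESeq2 1.6.3 normalized table was not used. The strand setting and Ensembl release are not given in the sources used here. Groups came from the labels. From the deposited counts, genes were filtered with filterByExpr, which 17834 of 45232 IDs passed, and 608 genes on X and Y and 83 unplaced genes were left out, using GENCODE M21 annotation (GRCm38) for positions, symbols and transcripts. The fit used edgeR 4.0.16 in R 4.3.3 with TMM scaling, limma 3.58.1 and glmQLFit over 5 groups of 3 libraries, without covariates. The biological coefficient of variation was 0.313. Raw counts for WT and AG221 ran from 22116122 to 28369651 per library, and intervals from counting alone are narrower than the spread between libraries.

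Named genes were, in each direction, the 12 with the smallest adjusted p among called genes without overlap (without predicted genes, pseudogenes and antigen receptor segments), up to 4 of each list with the smallest p, Jak2, Idh2, Gata1, Gata2, Kit, Ly6a, Klf6 and Myc, and 5 per direction from AG221 against vehicle. The members and lists were chosen with earlier results of these data known, so lists were given no test. Alternatives were DESeq2 1.42.0, other scalings, GC and length offsets (lowess, span 0.3), other filters, thresholds and leaving out each library. The procedure was tested on simulated data with known fold changes.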

Additional observations from a re-analysis of the deposited data

Results flagged for a closer look

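At 19 of the 133 single genes recomputed under each alternative, the effect differed between treatments of mutant cells. That is, AG221 and vehicle differed by edgeR's quasi-likelihood test of AG221 minus vehicle. Among all 17143 genes tested, 175 (1.02%) were called in that contrast. Some of the single genes were chosen for a small p in the same contrast, so the count of 19 is raised by that choice. Higher with AG221 were the secreted protein gene Dmkn by 2.02 on the log2 scale (edgeR adjusted p = 0.0242), the lectin gene Mgl2 by 2.17, the haptoglobin gene Hp by 1.63, the Fc receptor gene Fcgr3 by 1.32, the cathepsin gene Ctsg by 1.12 (edgeR adjusted p = 0.0482) and the sorting receptor gene Sort1 by 1.03. Of metabolic and proteasome genes, Pgd differed by 0.79, Sem1 by 0.77, Ndufa11 by 0.74, Eno1 by 0.70 and Gpi1 by 0.56. Lower with AG221 were Plekha6, whose difference was -1.74, the stem cell factor gene Prdm16 (-1.59), the receptor gene S1pr1 (-1.29), the zinc finger genes Zfp397 (-1.03) and Zbtb41 (-0.97), the signaling inhibitor gene Socs6 (-0.96), the kinase gene Prkcq (-0.85) and Fbxo38, a member of the F-box family (-0.70). The edgeR adjusted p was 0.0454 at each of the other 17 genes.

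Each of these genes kept its sign when any of the 6 libraries was left out, but passed the test in 1 or 2 of those 6 fits, which were those without A9 or A3. At Sort1, Mgl2 and Fbxo38 the vehicle mean lay beyond the WT mean as seen from AG221: Mgl2 averaged 21.4 CPM with AG221, 4.75 CPM with vehicle and 7.06 CPM in WT. At S1pr1, Zbtb41 and Socs6 vehicle lay near WT, for example 42.2 CPM against 41.2 CPM of Zbtb41, with 21.6 CPM under AG221. At Dmkn, Hp and Ctsg vehicle lay between WT and AG221. Several were picked for a small p in this same contrast, so their differences are descriptions.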

How the results depend on the processing

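Over the alternatives of scaling, filter and libraries in the fit, the count of called genes ran from 6868 to 9496 and was 9622 with DESeq2, and it fell to 92 at an adjusted p under 0.0001 (80 higher, 12 lower) and to 5503 with at least a 2-fold change (1496 higher). Leaving out 1 library gave 6177 to 10362 calls, 2984 to 4092 higher and 3139 to 6270 lower. Lower calls fell to 3139 without A8, 3230 without A10 and 3226 without B30. Of all calls 43.7% were higher, against 36.2% over genes with at least 1 count, 57.1% with the GC offset and 59.6% with the length offset, which was chosen after seeing the data. AG221 against vehicle gave 0 to 4537 calls in edgeR when 1 library was left out (2540 to 6534 at an unadjusted p under 0.05) and 2214 with DESeq2, both run after seeing the data. Of 133 single genes recomputed under each alternative, 127 were called, 8 of these lost the call somewhere (Kit, Cd34, Sort1, Samd9l, Zbtb41, Srebf2, Ly6g and Cd4) and 5 gained one (Idh2, Ly6a, Gata2, Myc and Fbxo38). The sign turned at Jak2, to 0.025 with the GC and 0.35 with the length offset, at Fbxo38, to 0.26 with the length offset, and at Myc, to 0.031 without A8 (-0.82 without A9). Both offsets also recentred every library over all genes. The cause of these turns was not tested. For gene lists, counts are given beside the list for each alternative that moved either direction by over 1.5 times and by at least 2 genes. No paired analysis was possible because the labels of the groups share no replicate numbers. Genes under 3 counts (0.101 to 0.141 CPM) cannot be ranked at this depth.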

Other observations

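Further gene groups are described beside the 22.1% called higher and 28.4% called lower among all genes, shares not matched for level or transcript length. MHC class I presentation genes were called higher at 7 of 18 and lower at 0 (median log2 fold change 0.15), led by Calr, a chaperone of the peptide loading complex, at 3758, 2902 and 3407 CPM against 1029.8, 819 and 1064 CPM in WT (log2 fold change 1.79 ± 0.19, edgeR adjusted p = 6.7e-05). MHC class I presentation genes had 7 higher and 5 lower without A9. MHC class II presentation genes had 3 higher and 1 lower of 11 tested, median log2 fold change 0.10, with Ifi30, a thiol reductase of antigen processing, at 50.7, 34.4 and 31.9 CPM against 7.91, 8.93 and 10.8 CPM (log2 fold change 2.08 ± 0.24, edgeR adjusted p = 0.000119). Heat shock chaperones had 13 higher and 4 lower of 24 tested, median log2 fold change 0.59, with Hsp90aa1, the inducible HSP90, at 1432, 879 and 1102 CPM against 500.4, 422 and 556 CPM. Heat shock chaperones had 13 higher and 2 lower with either offset, over genes with at least 10 counts in every library or without A10, 11 and 2 without A8, 13 and 10 without A9, and 12 and 2 without B30. ATF4 amino acid response genes had 16 higher and 6 lower of 27 tested, median log2 fold change 0.82, and Phgdh, which opens serine synthesis, was at 805, 521 and 647 CPM against 271, 256 and 326 CPM (log2 fold change 1.21 ± 0.17, edgeR adjusted p = 0.000295). ATF4 amino acid response genes had 16 higher and 3 lower without A8, A10 or B30. NRF2 antioxidant and iron storage genes had 7 higher and 3 lower of 18 tested, median log2 fold change 0.39. The NADPH-forming Pgd was at 497, 344 and 385 CPM against 142, 134 and 164 CPM (log2 fold change 1.48 ± 0.15, edgeR adjusted p = 4.13e-05). NRF2 antioxidant and iron storage genes had 6 higher and 1 lower without A8, and 7 and 1 without A10.

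Cell cycle regulators and apoptosis genes were divided. D cyclins and CDK inhibitors had 7 higher and 2 lower of 11 tested, median log2 fold change 0.61, with Cdk4 at 1136, 891 and 1087 CPM against 549, 504 and 661 CPM and Cdk6 at 967, 746 and 906 CPM against 513, 427 and 504 CPM, both called higher. D cyclins and CDK inhibitors had 6 higher and 4 lower without A9. Bcl2 family genes had 5 higher and 5 lower of 15 tested, median log2 fold change 0.34, among them Bid, a link from caspases to mitochondria, at 163, 171 and 154 CPM against 92.1, 86.96 and 101 CPM. Bcl2 family genes had 6 higher and 3 lower with the GC offset, 6 and 2 with the length offset, 5 and 2 with only the 6 libraries in the fit, 4 and 2 without A8 or B30, 4 and 3 without A10, and 5 and 3 without B28. The Myc and Max network had 2 higher and 4 lower of 12 tested, median log2 fold change -0.47, and Max, the partner of Myc, was at 262, 191 and 232 CPM against 119.5, 108 and 139 CPM (log2 fold change 0.90 ± 0.16, edgeR adjusted p = 0.000797). The Myc and Max network had 2 higher and 2 lower with upper quartile scaling, with the GC offset, over genes with at least 1 count or without A8, B30 or B31, and 3 and 2 with the length offset. SR splicing factors and Clk kinases had 7 higher and 9 lower of 24 tested, median log2 fold change 0.022, and the median was -0.019 without A9. SR splicing factors and Clk kinases had 11 higher and 4 lower with the GC offset, 13 and 5 with the length offset, 5 and 3 without A8, A10 or B30, and 6 and 4 without B28.

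Glucocorticoid-induced genes had 3 higher and 2 lower of 11 tested, median log2 fold change 0.06 (-0.40 without A9), with Per1, a clock gene, at 46.5, 60.04 and 58.7 CPM against 8.78, 10.6 and 15.5 CPM (log2 fold change 2.24 ± 0.32, edgeR adjusted p = 0.000309). Glucocorticoid-induced genes had 3 higher and 4 lower without A9. Niche retention genes had 6 higher and 3 lower of 13 tested, median log2 fold change 0.37, and Klf2, which drives S1pr1, was at 9.49, 11.7 and 9.93 CPM against 0.544, 1.35 and 0.536 CPM (log2 fold change 3.67 ± 0.53, edgeR adjusted p = 0.000338), while S1pr1 was lower. Abundant long noncoding RNAs had 7 higher and 2 lower of 13 tested, median log2 fold change 0.55. Abundant long noncoding RNAs had 7 higher and 4 lower without A9. Myeloid fate transcription factors had 5 higher and 3 lower of 15 tested, median log2 fold change 0.23 (-0.13 without A9), and Cebpe, a factor of granule maturation, was at 13.7, 28.3 and 11.7 CPM against 6.24, 3.61 and 6.002 CPM (log2 fold change 1.76 ± 0.44, edgeR adjusted p = 0.00629). Myeloid fate transcription factors had 6 higher and 5 lower with upper quartile scaling, over genes with at least 1 count or with DESeq2, 8 and 1 with the GC offset, 7 and 1 with the length offset, 3 and 3 over genes with at least 10 counts in every library, 5 and 1 without A8 or B31, 4 and 5 without A9, 6 and 1 without A10, and 4 and 1 without B28 or B30. Genes of the lineage cocktail, which the sort should leave out, had 3 higher and 1 lower of 11 tested, median log2 fold change 0.24. Ly6g, a neutrophil antigen, was at 0.513, 0.422 and 2.26 CPM against 0.0726, 0 and 0.101 CPM, at or under 3 counts in every WT library, and Cd4, a T cell antigen, at 0.427, 0.469 and 0.182 CPM against 3.63, 3.44 and 3.29 CPM, and both calls were lost without A10. Lineage cocktail genes had 5 higher and 1 lower with the length offset, and 1 and 0 without A10. The part of mature cells in these differences was not tested.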
